A study of Mus musculus with 6 samples.

Results

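The miRNAs described here are the family of miR-192, miR-194 and miR-215 and the cluster of miR-216a, miR-216b and miR-217, which have been reported in the circuit that transforming growth factor β1 (TGF-β1), a profibrotic cytokine, drives in mesangial cells of the diabetic kidney. They were taken by name as every mature arm of the mouse hairpins miR-192, miR-194-1, miR-194-2, miR-215, miR-216a, miR-216b and miR-217. These 7 hairpins encode 13 mature arms, and 7 of those arms had a row in the table, of 778 mature miRNAs in all. The rows were mmu-miR-192-5p, mmu-miR-192-3p, mmu-miR-194-5p, mmu-miR-194-2-3p, mmu-miR-215-5p, mmu-miR-215-3p and mmu-miR-217-5p. The other 6 arms, which include both arms of miR-216a and of miR-216b, were not analysed here.

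Small RNA came from mouse primary mesangial cells, the contractile cells that support the capillaries of the glomerulus. All cells were grown at passages 3 to 6 in medium with 25.5 mM glucose and 20% foetal bovine serum. The TGF-b1 group (n = 3 libraries) received the cytokine at 10 ng/ml for 72 h, and the Control group (n = 3 libraries) carried the label Control with no other treatment named. High glucose was therefore shared by both groups, and no group came from a diabetic animal as far as the labels say. The samples were taken in triplicate, but the labels do not say whether from separate cultures, so p-values measure the spread between these libraries, which may be technical.

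A miRNA guides a repressor complex to messenger RNAs that pair with its seed, bases 2 to 8 of the mature strand. In mouse mesangial cells, TGF-β1 has been reported to raise miR-192, which targets the E-box repressors Zeb1 and Zeb2, and also miR-216a and miR-217. In renal tubule cells, by contrast, miR-192 has been reported to fall after TGF-β1. miR-192 and miR-194 are also abundant in liver and gut epithelium.

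The mature sequences, from RefSeq (GRCm38.p6), show which rows can act on the same targets and which could be mistaken for each other. All 13 arms were matched there. Capitals mark the seed. The first pair shares 1 seed.
mmu-miR-192-5p: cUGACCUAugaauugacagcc
mmu-miR-215-5p: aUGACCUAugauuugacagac
The pair was identical at 18 of 21 bases, with the differences C1A, A12U and C20A, counted from 1 at the 5′ end of miR-192-5p, and the seed was free of them. mmu-miR-194-5p has a seed of its own and is the same sequence from both of its hairpins, so its reads cannot be assigned to 1 locus. The opposite arms of those hairpins do differ, and the arm of the second hairpin was the one with a row.
mmu-miR-194-5p: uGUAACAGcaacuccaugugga
mmu-miR-194-2-3p: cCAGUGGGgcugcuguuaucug
mmu-miR-194-1-3p: cCAGUGGAgcugcuguuacuuc
Between these 3p arms the differences were A8G, C19U, U20C and C22G, counted along miR-194-1-3p, and the first of them lies in the seed. The remaining sequences are those of the miR-217 cluster, where mmu-miR-216a-5p and mmu-miR-216b-5p differ within the seed.
mmu-miR-217-5p: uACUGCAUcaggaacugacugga
mmu-miR-216a-5p: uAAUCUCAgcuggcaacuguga
mmu-miR-216b-5p: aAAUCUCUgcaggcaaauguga
These last 2 were identical at 18 of 22 bases and differed by U1A, A8U, U11A and C17A, counted along miR-216a-5p.

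The hairpins lie in 3 clusters of the mouse genome, given here on NCBIM37, strand plus. Mir194-2 (chr19:6264643-6264728) and Mir192 (chr19:6264844-6264932) are 115 bases apart, with no annotated gene over them. Mir194-1 (chr1:187137198-187137264) and Mir215 (chr1:187137460-187137571) are 195 bases apart, in an intron of Iars2, an isoleucyl-tRNA synthetase gene on the opposite strand. Mir216b (chr11:28646191-28646276), Mir216a (chr11:28657012-28657083) and Mir217 (chr11:28663728-28663835) span 17645 bases. The last 2 of these lie in an intron of the processed transcript Gm12082, and Mir216b is 5357 bases away from it.

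Values are in RPM, a miRNA's reads scaled to a library total of 1000000 reads. A small RNA read covers a whole mature miRNA, so no length scaling was applied, and levels of different miRNAs are compared as captured. Library totals ranged from 16478281 to 20169254 reads, so that 1 read was worth 0.0496 to 0.0607 RPM and a count of 0 allowed up to 0.149 to 0.182 RPM (3 reads). Such limits and the counting intervals below cover counting error only. The listed rows held between 79.5% and 79.8% of all reads in Control libraries, but between 71.6% and 73.1% in TGF-b1 libraries.

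Among the family, miR-192-5p and miR-194-5p were higher in TGF-β1-treated than in control cells, by 17.8% and by a ratio of 1.66 in RPM. Neither reached a change of 1 on the log2 scale. With any 1 library left out, the limma adjusted p of miR-192-5p was 0.0622 to 0.110. That of miR-194-5p was 0.026 to 0.0638. Neither passed 0.05 by limma with replicate number added to the fit. The values of miR-215-5p overlapped between the groups. Of the miR-217 cluster, miR-217-5p had 2 reads in all 6 libraries. The plot of members by library shows this range of levels.

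**Figure D1:**
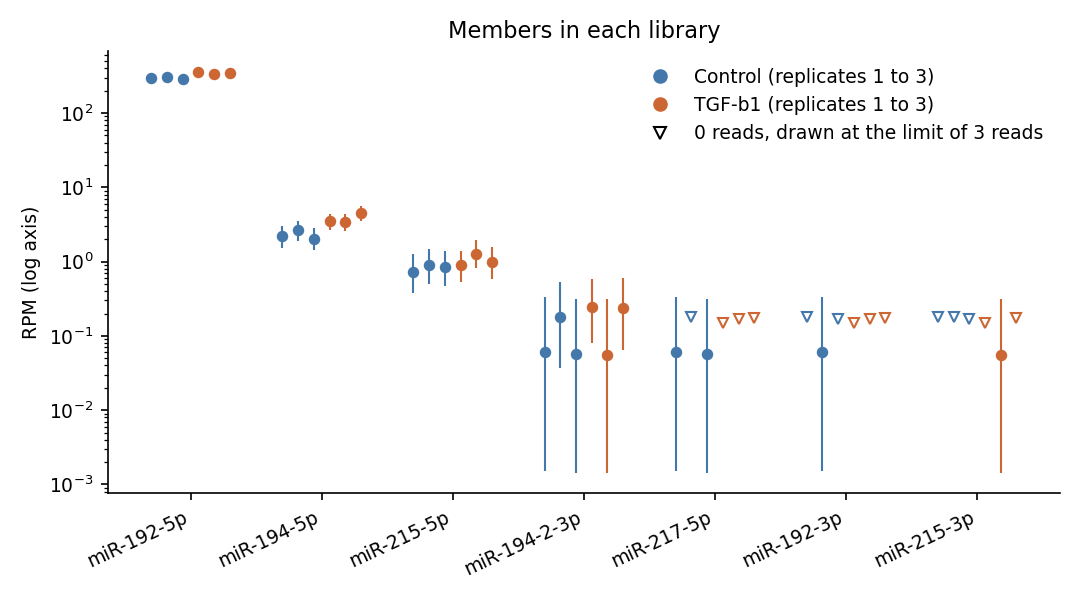
RPM (log axis) of the 7 members in each library, with Control replicates 1 to 3 in blue, TGF-b1 replicates 1 to 3 in orange, and exact 95% counting intervals as lines. Open triangles mark 0 reads, drawn at the limit of 3 reads. miR-192-5p lies between 290.2 and 361.1 RPM, miR-194-5p between 2.04 and 4.51 RPM, and miR-217-5p, miR-192-3p and miR-215-3p are at 0 in at least 4 of 6 libraries.

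miR-192-5p is the main arm of Mir192 and the miRNA of the family best known from mesangial cells. It had 296.1, 304.2 and 290.2 RPM in Control replicates 1 to 3 and 361.1, 337.5 and 350.2 RPM in TGF-b1 replicates 1 to 3. Every TGF-b1 library lay above every Control library. These values stand for 4880 to 5115 reads per Control library and 5983 to 7283 reads per TGF-b1 library. Control cells averaged 296.9 ± 6.99 RPM and treated cells 349.6 ± 11.8 RPM (SD, n = 3 each), where counting error alone would give SDs of 4.19 and 4.37 RPM. The change of log2(RPM + 1) was 0.23 ± 0.08 (SE, 95% interval 0.051 to 0.42), with an adjusted p of 0.0396 by limma over 408 tested miRNAs. With any 1 of the 6 libraries left out, the log2 change stayed between 0.21 and 0.26, but limma's adjusted p rose to between 0.0622 and 0.110. Without the filter on low rows the adjusted p of limma was 0.0561. By mean level miR-192-5p ranked 52 of 778 rows.

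miR-194-5p can come from the hairpin next to Mir192 and from the one next to Mir215. It had 2.18, 2.64 and 2.04 RPM in Control and 3.47, 3.41 and 4.51 RPM in TGF-b1, from 36, 44 and 36 reads and from 70, 61 and 77 reads. The groups did not overlap, with a highest Control library (replicate 2) below the lowest TGF-b1 library (replicate 2). Control cells averaged 2.29 ± 0.311 RPM and treated cells 3.79 ± 0.618 RPM (SD, n = 3 each), where counting SDs would be 0.368 and 0.455 RPM. The change of log2(RPM + 1) was 0.54 ± 0.15 (SE, 95% interval 0.19 to 0.89), with an adjusted p of 0.0186 by limma. This scale understates the change of a low miRNA, and on recovered reads edgeR gave a log2FC of 0.88 (adjusted p = 0.00571) and DESeq2 one of 0.94 (adjusted p = 0.0166). The limma adjusted p was 0.0636 without Control replicate 1, 0.0638 without Control replicate 3 and 0.0575 without TGF-b1 replicate 3. By mean level it ranked 274 of 778 rows.

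miR-215-5p carries the seed of miR-192-5p but is encoded beside Mir194-1. It had 0.728, 0.899 and 0.851 RPM in Control, and 0.892, 1.28 and 0.995 RPM in TGF-b1, from 12 to 15 and from 17 to 23 reads. The lowest TGF-b1 library, replicate 1, fell below the highest Control library, replicate 2. The means were 0.826 ± 0.0882 and 1.06 ± 0.203 RPM (SD, n = 3 each), and the counting SDs of 0.221 and 0.240 RPM were larger than the spreads observed. The change of log2(RPM + 1) was 0.17 ± 0.12 (SE, 95% interval -0.12 to 0.46), with an adjusted p of 0.300 by limma. Lowering the pseudocount to 0.1 gave a log2 change of 0.31 (limma adjusted p = 0.315), and the log2FC was 0.50 with edgeR (adjusted p = 0.200) and 0.58 with DESeq2 (adjusted p = 0.476). The ratio of pooled reads, 58 to 42, was 1.27 after scaling to the totals, with an exact 95% counting interval of 0.840 to 1.94, so a change of this size was not detectable at this depth. It ranked 367 of 778 rows by mean level.

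Of the 3 members tested, 2 passed an adjusted p of 0.05 by limma, both of them higher after TGF-β1. Of all 408 tested miRNAs, 49.3% passed in either direction, 17.4% as higher and 31.9% as lower. Of the miRNAs called, 35.3% were higher, and 51.6% were under median-of-ratios scaling. Treated and control libraries were fully separated for 2 of these 3 members, against 56.9% of all tested miRNAs in either direction and 20.8% with TGF-b1 above Control. With an absolute log2 change above 1 required as well, 0 of the 3 members were called, against 12.3% of all tested miRNAs. The 3 changes also gave 2 members at an unadjusted p under 0.05, and edgeR and DESeq2 likewise called 0 members past both thresholds. An exact two-sided permutation test over libraries gave p = 0.1 for miR-192-5p and for miR-194-5p, the smallest that 3 libraries against 3 allow.

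The changes of the members stood above the middle of the table. Over all tested miRNAs the log2 change had a median of -0.17, and over the 3 tested members a median of 0.23. Relative to that median, miR-194-5p was higher by 0.71, miR-192-5p by 0.41 and miR-215-5p by 0.34 on the log2(RPM + 1) scale. The order of the last 2 turned with the pseudocount and the tool, since relative to the median of each fit miR-192-5p was higher by 0.47 and miR-215-5p by 0.55 with a pseudocount of 0.1, by 0.46 and 0.57 with edgeR, and by 0.45 and 0.58 with DESeq2. Scaling by TMM moved the median of all tested miRNAs up by 0.11 and median-of-ratios scaling moved it up by 0.15. Under these the log2 change of miR-192-5p was 0.39 and 0.45, with adjusted p of 0.0062 and 0.00366 by limma, and scaling to the sum of the listed rows gave 0.37 with an adjusted p of 0.0080. In bulk RNA, more cells that make a miRNA and more of it per cell cannot be told apart.

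**Figure D2:**
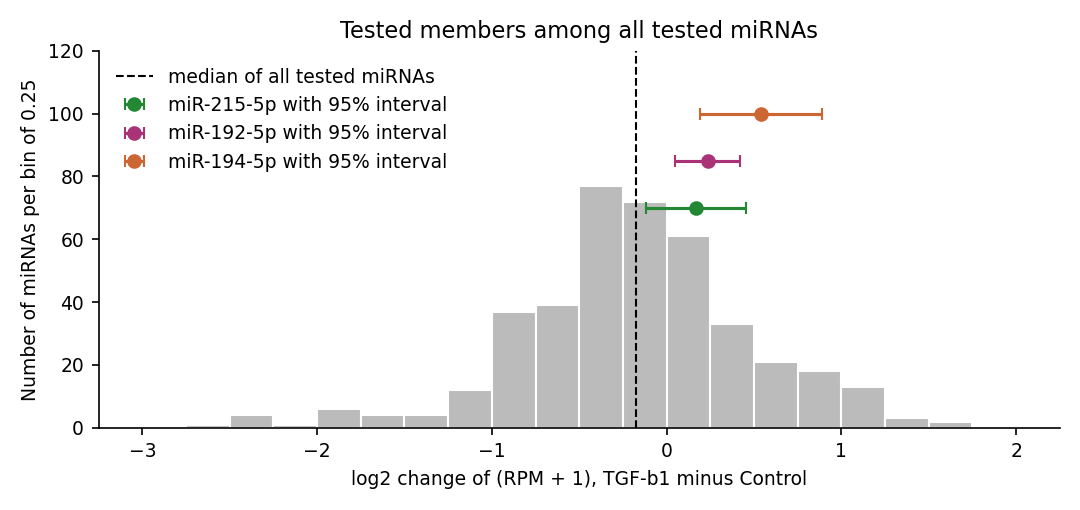
Histogram of the log2 change of (RPM + 1), TGF-b1 minus Control, for the 408 tested miRNAs in bins of 0.25, with the 3 tested members drawn as points with 95% intervals from limma at arbitrary heights. The dashed line is the median of all tested miRNAs at -0.17, and all 3 members lie to its right, of which only miR-215-5p has an interval that includes 0.

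**Figure D3:**
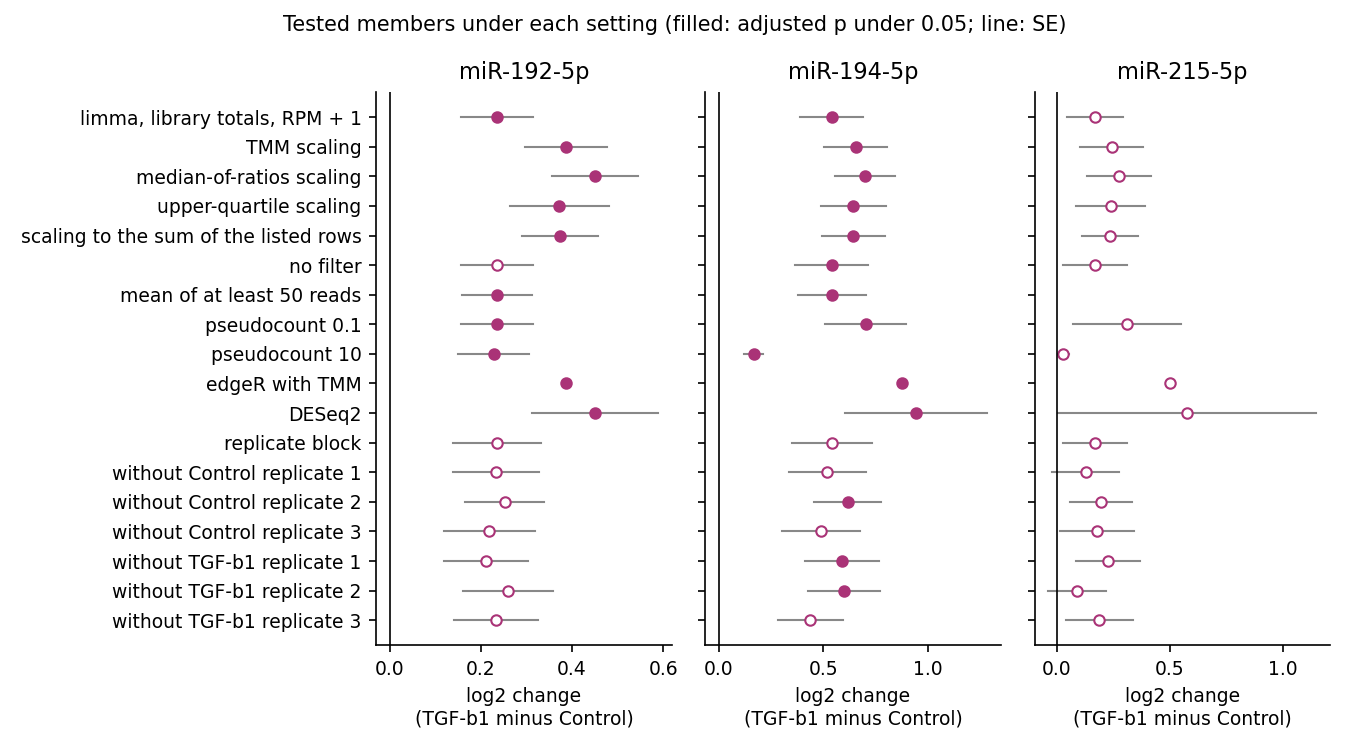
Log2 change of the 3 tested members, TGF-b1 minus Control, in the fit on library totals and under each alternative setting, with the SE as a line where the tool gives one. Filled points have an adjusted p under 0.05. All changes lie above 0, besides the first setting miR-192-5p is filled in 9 others and miR-194-5p in 13, while miR-215-5p is filled in none.

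Ratios between members within a library do not depend on how libraries are scaled. The reads of miR-192-5p per read of miR-194-5p were 135.6, 115.3 and 142.1 in Control and 104.0, 99.1 and 77.7 in TGF-b1. Every TGF-b1 library had the lower ratio, with means of 131.0 ± 14.0 and 93.6 ± 14.0 (SD, n = 3 each). The log2 ratio, with 0.5 read added to each count, differed by -0.48, so the change of miR-194-5p exceeded that of its neighbour in these libraries. The exact two-sided permutation p was 0.1 (0.3 by Benjamini-Hochberg over 3 ratios), and 0.1 is the smallest that 3 libraries against 3 allow. This test therefore could not pass the threshold used for limma at any separation, with or without the correction, and decides nothing here. Leaving out 1 library kept the difference of the log2 ratio between -0.57 and -0.35.

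The seed partners miR-192-5p and miR-215-5p kept overlapping ratios. There were 406.7, 338.3 and 341.0 reads of miR-192-5p per read of miR-215-5p in Control, and 404.6, 262.9 and 351.9 in TGF-b1. The means were 362.0 ± 38.7 and 339.8 ± 71.6 (SD, n = 3 each), and the log2 ratio differed by -0.095 (exact two-sided permutation p = 0.9, adjusted 0.9). Without TGF-b1 replicate 2 the difference was 0.076. Of all reads that carry the shared seed UGACCUA in these rows, miR-192-5p gave 99.6% to 99.8% in each library. One more ratio, chosen after its values were seen, gave 3.00, 2.93 and 2.40 reads of miR-194-5p per read of miR-215-5p in Control and 3.89, 2.65 and 4.53 in TGF-b1. These also overlapped, and the log2 ratio differed by 0.39 (exact two-sided permutation p = 0.3, adjusted 0.45).

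**Figure D4:**
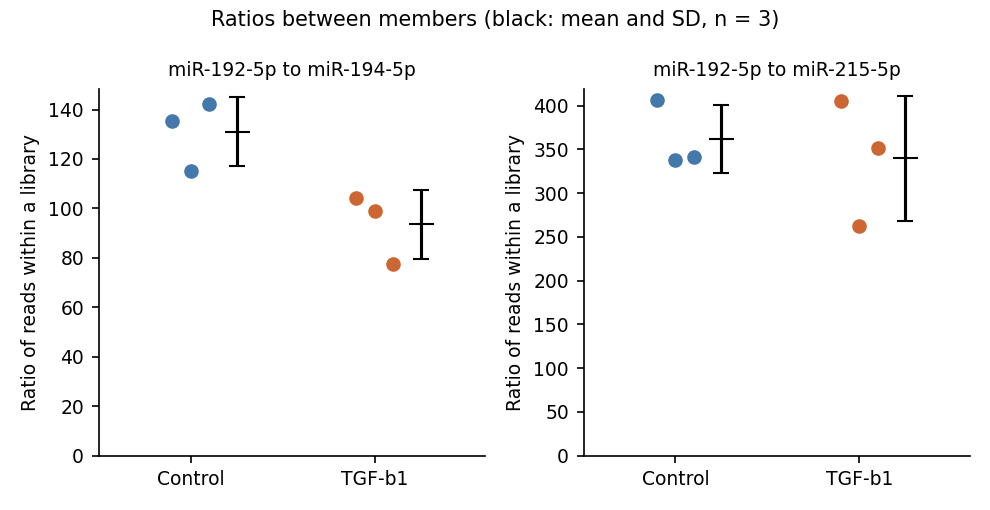
Ratio of reads within a library, for miR-192-5p to miR-194-5p on the left and miR-192-5p to miR-215-5p on the right, with Control libraries in blue, TGF-b1 libraries in orange and the mean and SD (n = 3) in black. The left ratio is lower in all 3 TGF-b1 libraries than in any Control library (mean 93.6 against 131.0), and the right one overlaps between groups.

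The opposite arms were rare. miR-194-2-3p had 1, 3 and 1 reads in Control and 5, 1 and 4 reads in TGF-b1, which is 0.0991 ± 0.0699 and 0.179 ± 0.107 RPM (SD, n = 3 each). The groups overlapped, and TGF-b1 replicate 2 was as low as the low Control libraries (exact two-sided permutation p = 0.4, or 0.8 by Benjamini-Hochberg over the 4 members below the filter). The ratio of pooled reads was 1.84, with an exact counting interval of 0.573 to 6.86. miR-192-3p had 1 read, in Control replicate 2 (0.0599 RPM), and miR-215-3p had 1 read, in TGF-b1 replicate 2 (0.0558 RPM). No change of either was detectable at this depth.

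The 3p arm took a smaller share of reads from Mir192 than from Mir194-2, and the share of Mir215 could not be told from that of Mir194-2 within counting error. For Mir192 it was 1 of 34382 reads, or 0.00291% (exact binomial 95% interval 7.36e-05% to 0.0162%). For Mir194-2 it was 15 of 339 reads, or 4.42% (2.50% to 7.19%), although the 5p count also holds any reads of Mir194-1. For Mir215 it was 1 of 101 reads, or 0.990% (0.0251% to 5.39%). Averaged over libraries, the Mir194-2 share reached 3.93% ± 2.12 for control and 4.41% ± 2.57 for treated cells (SD, n = 3 each), which did not separate the groups (exact two-sided permutation p = 0.9, adjusted 1). Its difference of 0.476 percentage points turned to -0.137 without Control replicate 1 or 3 and to -0.654 without TGF-b1 replicate 1.

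miR-217-5p, the arm of its cluster with a row, had 1 read in Control replicate 1 (0.0607 RPM), 1 in Control replicate 3 (0.0567 RPM) and 0 in every other library. In the TGF-b1 libraries a count of 0 allows up to 0.149 to 0.176 RPM. Both groups were thus within that limit (exact two-sided permutation p = 0.4, adjusted 0.8). The ratio of pooled reads was 0, with an exact 95% counting interval of 0 to 4.90, so no change was detectable at this depth. In order of level the members ran from miR-192-5p through miR-194-5p, miR-215-5p and miR-194-2-3p to the rest. The first 3 did not overlap with each other in any library. The last 3, miR-217-5p, miR-192-3p and miR-215-3p, were each at 0 to 0.0607 RPM and could not be ordered.

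The miRNAs whose pattern over the 6 libraries was most like that of miR-192-5p were miR-191-5p, miR-34c-5p and miR-181a-5p, with root-mean-square differences of centred log2(RPM + 1) of 0.0645, 0.0696 and 0.0756. All were more abundant. miR-191-5p went from 1849 ± 145.4 to 2311 ± 102.8 RPM (SD, n = 3 each), and the log2 changes of the 3 were 0.32, 0.31 and 0.31. They were picked on all 6 libraries, treated and control, so similar changes follow from the choice and are not a result.

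Other miRNAs reported in the mesangial TGF-β1 circuit moved in both directions. Of 16 on the list, all had a row and 12 were tested, of which 2 rose, 8 fell and 2 did not pass by limma, with a median log2 change of -0.70 beside -0.17 for all tested miRNAs, of which 31.9% fell. On this list 5 miRNAs also serve as epithelial markers, and these include 3 of the 8 that fell. miR-379-5p, of a large imprinted miRNA cluster, rose by 1.04 (limma adjusted p = 0.000828). miR-200a-3p, miR-200b-3p and miR-429-3p, which repress Zeb1 and Zeb2, had changes of log2(RPM + 1) of -2.64, -2.27 and -1.94. This scale understates the change of a low miRNA, and with edgeR the median log2FC of these 3 was -3.30. Their means were 12.7, 6.74 and 3.99 RPM in Control and 1.23, 0.601 and 0.290 RPM in TGF-b1. With TMM scaling the list gave 3 that rose and 8 that fell, and with the replicate block or no filter 1 and 8.

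Markers of other cell types were read beside these values. The 6 mesenchymal and contractile miRNAs all had rows, with a summed level of 17381 to 18864 RPM in Control and 17955 to 21743 in TGF-b1. Most of that sum was miR-21-5p, also on the circuit list, with means of 15380.8 RPM in Control and 16920.5 in TGF-b1. Of the 6 miRNAs 1 rose (miR-145-5p), 2 fell (miR-199a-3p and miR-199a-5p) and 3 did not pass, with a median log2 change of -0.095. With TMM scaling 2 rose and 1 fell, with a median of 0.049, and with median-of-ratios scaling the counts were the same and the median 0.11. Liver and kidney epithelium also make miR-192 and miR-194. Of 7 epithelial markers 3 were tested and fell by limma, as did the 1 hepatocyte marker. The 3 epithelial markers tested are miR-200a-3p, miR-200b-3p and miR-429-3p, already counted in the circuit list. miR-122-5p, the defining hepatocyte miRNA, was at 24.2 to 27.3 RPM in Control and 13.1 to 13.9 in TGF-b1, and the sum of 7 epithelial miRNAs was 22.2 to 25.6 RPM against 1.67 to 2.58, with 4 of the 7 at 0 in some library. The islet marker miR-375-3p was at 0.284 to 0.668 RPM in Control and 0.248 to 0.447 in TGF-b1. Of 5 blood cell markers 3 had rows, summing to 0.170 to 0.659 and 0.149 to 0.293 RPM, and the endothelial pair summed to 0.114 to 0.182 and 0 to 0.298 RPM. The 3 striated muscle miRNAs summed to 3440 to 3646 RPM in Control and 3285 to 3465 in TGF-b1, nearly all of it miR-206-3p. Its means were 3502 RPM in Control and 3363 in TGF-b1, against 9.985 and 10.755 for miR-1a-3p and 0.0807 and 0.0381 for miR-133a-3p. Neither of the 2 that were tested, miR-206-3p and miR-1a-3p, passed. The part of other cells in the members' levels was not tested.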

How the data were processed

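Small RNA libraries of 3 Control and 3 TGF-b1 samples were sequenced on an Illumina instrument. The authors trimmed adaptors, discarded short, contaminant and low-quality reads, and matched the rest to known miRNAs with Bowtie. The authors deposited 1 table, headed TPM, of reads divided by the library total, which is RPM. The counting of reads with more than 1 matching miRNA is not given in the sources used here. The study tested with DESeq.

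Library totals were recovered as the integers for which values are whole reads. All values (100%) came out whole within 0.002 reads. For the main test, log2(RPM + 1) was modelled on group alone in limma 3.58.1 under R 4.3.3, using a trended prior and two-sided p-values, with Benjamini-Hochberg adjustment over the 408 of 778 miRNAs kept by filterByExpr (edgeR 4.0.16, minimum count 10). Of the 7 members, 3 were tested. Exact two-sided permutation tests (scipy 1.17.1) served for ratios, arm shares and members below the filter. The fits were also run on simulated reads with rises and falls drawn evenly, unlike these data, and nothing here rests on that run.

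Alternatives covered scaling (TMM, upper quartile, median of ratios, sum of listed rows), the filter (none, or a mean of 50 reads or more), the pseudocount (0.1 or 10), edgeR and DESeq2 1.42.0 on recovered reads (edgeR called 186 and DESeq2 147 miRNAs, beside 201 by limma, at an adjusted p under 0.05), a replicate block, and each library left out. One ratio and the leave-one-out values of members below the filter were added after seeing the data. The miRNAs named are all rows of the 7 hairpins, the 3 nearest in pattern to miR-192-5p, at most 5 of the circuit list, and cell type markers (miR-145-5p, miR-21-5p and both miR-199a arms were singled out after their values were seen). Members, lists and tests were chosen with earlier results of these data known. Positions came from GENCODE vM1 (NCBIM37) by name.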

Additional observations from a re-analysis of the deposited data

How the results depend on the processing

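The number of members past an adjusted p of 0.05 was 2 in 9 of 17 alternatives, which were all 4 other scalings, both pseudocounts, the stricter filter, edgeR and DESeq2. It was 1 without the filter on low rows, where miR-192-5p was lost, and 0 to 1 with a library left out. No member passed an absolute log2 change of 1 as well in any of the 17. miR-215-5p was not tested where a mean of at least 50 reads was required and passed in none of the other 16. With a library left out, its log2 change was 0.091 to 0.23. The ranges with a library left out were -0.57 to -0.35 for the log2 ratio of miR-192-5p to miR-194-5p, -0.23 to 0.076 for miR-192-5p to miR-215-5p (turned without TGF-b1 replicate 2), and 0.22 to 0.60 for miR-194-5p to miR-215-5p. For the 3p share they were -0.00985 to 0 percentage points for Mir192, -0.654 to 1.87 for Mir194-2 and 0 to 2.08 for Mir215. For the low members they were -0.0300 to 0 RPM for miR-192-3p, 0.0459 to 0.142 for miR-194-2-3p, 0 to 0.0279 for miR-215-3p and -0.0587 to -0.0284 for miR-217-5p. The 1-read members turned to 0 without the library that held the read. A ratio of miR-216a-5p to miR-217-5p was planned and could not be computed.

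Replicate numbers are shared between the groups, but same-numbered libraries did not deviate together (correlations -0.084, -0.208 and -0.345 over 408 miRNAs). With 3 libraries per group these correlations cannot decide whether same-numbered libraries shared a culture or batch, and the labels do not say. With the replicate block 0 members passed, with adjusted p of 0.0946 for miR-192-5p and 0.0605 for miR-194-5p by limma at the same log2 changes of 0.23 and 0.54.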
